A study of Homo sapiens with 40 samples.

Results

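Interferon-stimulated genes are the genes that cells switch on after an interferon signal, and 38 of them, given as a list of symbols and matched through current or former names (RIGI was DDX58), were followed here in cells with and without SETDB1. All 38 had a row of their own among the 62486 gene IDs of the count table, and 32 had enough reads to be tested. Interferons are secreted proteins that bind receptors on the cell surface and activate the kinases JAK1 and TYK2, which phosphorylate STAT2 and related factors. With IRF9 these form a complex that binds the interferon-stimulated response element in promoters, and the induced proteins sense viral RNA, block viral entry and translation, tag proteins with the ubiquitin-like protein ISG15, or feed back on the signal. Airway epithelial cells are among the cells in which this programme is known to meet respiratory viruses.

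The cells were A549, an established human lung adenocarcinoma line that carries K-RAS G12S, obtained from a public repository and grown in standard medium. Control (CT) cells were compared with knockout (KO) cells in which CRISPR/Cas9, with the guide cloned into the PX458 plasmid, was used to disrupt SETDB1, a methyltransferase that places the repressive mark H3K9me3. Both groups share the line and its K-RAS allele, no interferon treatment is named in the labels, and whether the KO cells are 1 clone or a pool is not given in the sources used here. Of the 40 samples of the series, 6 are RNA-seq libraries of total RNA, 3 per genotype, and these are the data used below. The labels do not say that the 3 libraries came from separate cultures, so p-values measure the spread between these libraries, which may be technical.

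Libraries held 18065062 to 48364919 counts, and mitochondrial genes took 21.0% to 24.0% of them. SETDB1 transcript fell from 38.6 ± 1.04 to 21.9 ± 1.32 CPM (the normalised read count, scaled to library size; mean ± SD, n = 3 per genotype here and below), which is -0.82 on the log2 scale (edgeR quasi-likelihood test, adjusted p = 1.7e-12). Of the 5 epithelial markers checked, all 5 were measured and rose in KO, from a summed level of 2995 to 3272 CPM in CT libraries to 9210 to 9943 CPM in KO libraries. Immune markers (6 genes) summed to 5.82 to 6.18 CPM in CT and 4.50 to 5.93 CPM in KO libraries, with CD3E and LILRA4 at 0 counts in every library and PTPRC at 0 or 1. CD14 carried most of that sum, at 5.68 ± 0.176 CPM in CT and 4.76 ± 0.699 CPM in KO libraries (lower without overlap, adjusted p = 0.070), and LYZ, not tested, had 1, 3 and 1 counts in CT and 7, 22 and 9 counts in KO libraries. Fibroblast markers (4 genes) summed to 3.15 to 3.27 and 3.74 to 4.28 CPM, with COL1A2 and DCN at 0 counts throughout. COL1A1 rose by 0.30 on the log2 scale (adjusted p = 0.041), and LUM, not tested, had 2 counts in each CT library and 4, 16 and 4 counts in KO libraries, without overlap on the scaled values. Of the endothelial markers, VWF had 0 to 2 counts per library and CDH5, which passed the filter only through KO libraries, rose from 0.289 ± 0.0835 to 4.53 ± 0.670 CPM. The part of these marker shifts in the results below was not tested.

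Most interferon-stimulated genes that could be tested were higher in SETDB1 KO cells, with a wide spread among them. At an adjusted p under 0.05, 25 of the 32 tested members were higher in KO and 2 were lower (UBE2L6 and HERC5), while 5 did not pass (IFIT5, MX1, OASL, IRF9 and DDX60). Across all 17767 tested genes, 62.8% were called, 32.8% as higher and 30.0% as lower. A rise of at least 2-fold was found for 16 members, against 9.86% of all tested genes, and no member fell by that much, against 4.85%. The median log2 fold change was 1.00 over the tested members and 0.0038 over all tested genes. For 25 members all KO libraries lay above all CT libraries, and for 3 they lay below, against 34.1% and 31.7% of all tested genes.

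Of the tested members, 5 (BST2, IFI44, OAS2, CMPK2 and OASL) would not have passed the filter on low counts by their CT libraries alone, and passing through KO libraries selects genes that are higher in KO. Among the other 27 tested members, 21 were higher, 12 of them by at least 2-fold, and the median log2 fold change was 0.91. Calls of 4 members (IFIT1, ISG15, USP18 and HERC5) were lost under at least 1 of 16 other settings. No loss was seen for the other 23 calls, 22 of them higher in KO, but 4 of these (BST2, IFI44, OAS2 and CMPK2) could be tested under 14 settings only, since they dropped out at a filter of 1 CPM and with libraries thinned to equal depth. In bulk RNA, a change in RNA per cell and a change in the share of cells that express a gene cannot be told apart.

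**Figure D1:**
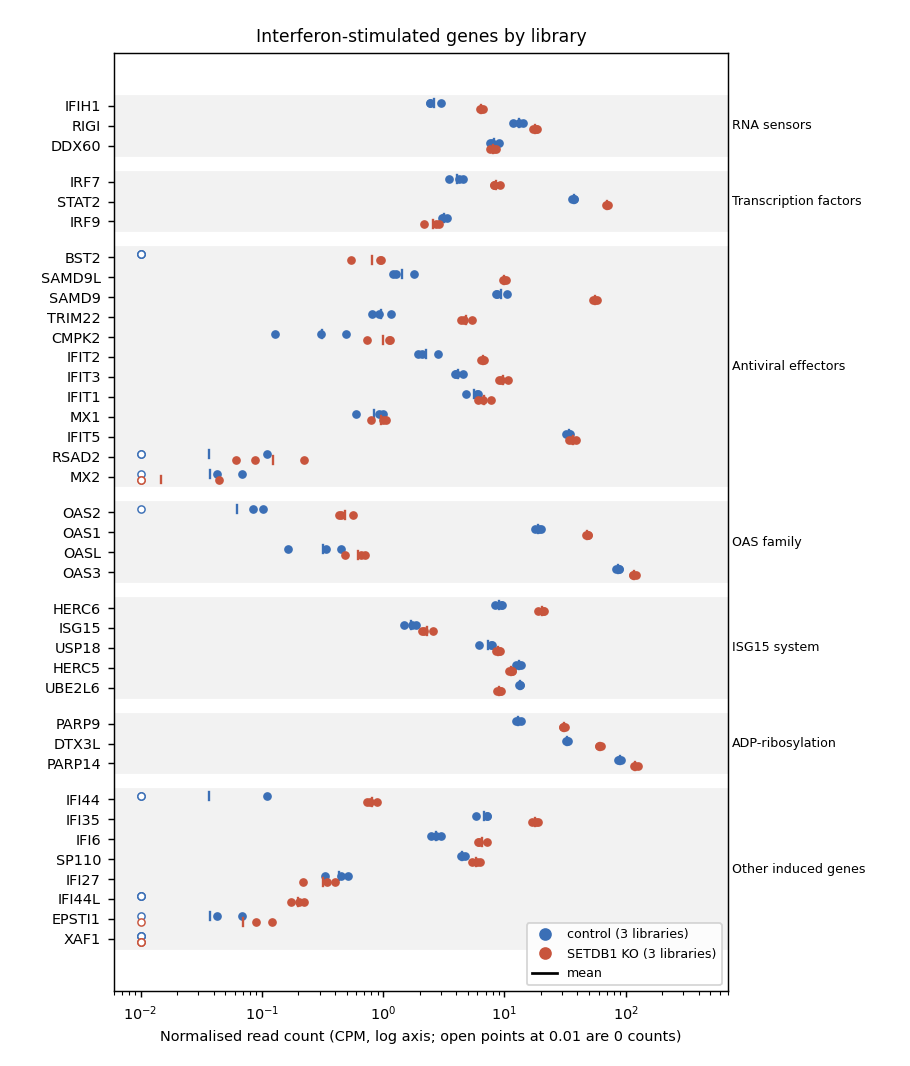
Normalised read count of each of the 38 members in each library, on a logarithmic CPM axis, grouped by role, with CT libraries in blue, KO libraries in red and short vertical lines at the group means. Open points drawn at 0.01 are libraries with 0 counts, and most members show 3 red points to the right of 3 blue ones.

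Most members with a promoter entry held the core of the interferon-stimulated response element near their start. The core was searched as GAAA, any 2 bases and a second GAAA, on both strands, in the promoter table of RefSeq (GRCh38.p14), which spans 250 bases before to 50 bases after each gene start, and matches may overlap each other. Of the 38 members, 31 had an entry and 20 of these held the core (64.5%), against 1195 of 27305 genes in the table (4.38%). A longer form, the core followed directly by CT, was found in 14 of the 31 (45.2%) and in 0.322% of all genes. The interferon gamma activated site, TTCNNNGAA, was found in 10 of the 31 (32.3%) and in 9.38% of all genes. A match describes letters in a window and says nothing of binding.

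The stretches around the core are shown for the members with a core among the 4 largest increases and among the 2 decreases, which are BST2, IFI44 and HERC5, written 5′ to 3′ along the gene's strand with the core, or its reverse complement (TTTC, any 2 bases, TTTC), in capitals. The BST2 stretch lies on the minus strand at chr19:17405723-17405782 and its first core begins 130 bases before the start, with a second core that overlaps the first. The IFI44 stretch, chr1:78649729-78649788 on the plus strand, holds a single core that begins 18 bases before the start. The HERC5 stretch, chr4:88456984-88457063 on the plus strand, holds 3 cores and belongs to a gene that was lower in KO.
BST2: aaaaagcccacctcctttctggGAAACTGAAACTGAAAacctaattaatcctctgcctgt
IFI44: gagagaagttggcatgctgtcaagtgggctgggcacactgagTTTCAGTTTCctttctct
HERC5: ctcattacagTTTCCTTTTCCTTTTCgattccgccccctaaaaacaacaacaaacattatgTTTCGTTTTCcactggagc

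A further 7 stretches were chosen after their values were seen, because they set members that rose beside members that did not pass the test. SAMD9 (chr7:93118081-93118140, minus strand, 1 core), IFI6 (chr1:27672267-27672358, minus strand, 3 cores) and IFIT3 (chr10:89327831-89327894, plus strand, 2 cores) rose with log2 fold changes of 2.59, 1.25 and 1.21. IFIT5 (chr10:89414513-89414573, plus strand, 3 cores) and DDX60 (chr4:168318787-168318850, minus strand, 2 cores) had log2 fold changes of 0.10 and -0.0049, neither past the test. PARP9 (chr3:122564307-122564366, minus strand) and DTX3L (chr3:122564282-122564341, plus strand) are divergent neighbours, and the capitals in their stretches are the same 10 bases, chr3:122564332-122564341, read from opposite strands.
SAMD9: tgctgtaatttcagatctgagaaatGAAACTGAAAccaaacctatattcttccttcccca
IFI6: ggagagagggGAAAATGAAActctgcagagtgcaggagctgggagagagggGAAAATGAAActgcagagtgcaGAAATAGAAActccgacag
IFIT3: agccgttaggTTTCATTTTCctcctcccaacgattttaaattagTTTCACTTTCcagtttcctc
IFIT5: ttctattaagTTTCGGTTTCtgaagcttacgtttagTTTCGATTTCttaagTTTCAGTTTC
DDX60: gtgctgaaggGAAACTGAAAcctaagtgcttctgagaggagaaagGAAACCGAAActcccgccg
PARP9: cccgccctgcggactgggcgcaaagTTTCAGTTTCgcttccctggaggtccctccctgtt
DTX3L: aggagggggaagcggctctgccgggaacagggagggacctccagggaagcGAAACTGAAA

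Among all tested members with a core, those with several and those with a single one are found on both sides of the threshold. Of the 16 tested members with a core, 12 were higher and 1 was lower in KO, with a median log2 fold change of 0.68. Of the 10 tested members with an entry and no core, 8 were higher and 1 was lower, with a median of 1.05. Among tested genes that are not members, 437 had a core, of which 170 (38.9%) were higher, 135 (30.9%) were lower and 11.9% rose by at least 2-fold. Among the 11352 without one, 35.4% were higher, 31.9% were lower and 8.95% rose by at least 2-fold. The median log2 fold changes were 0.028 with and 0.016 without the core.

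**Figure D2:**
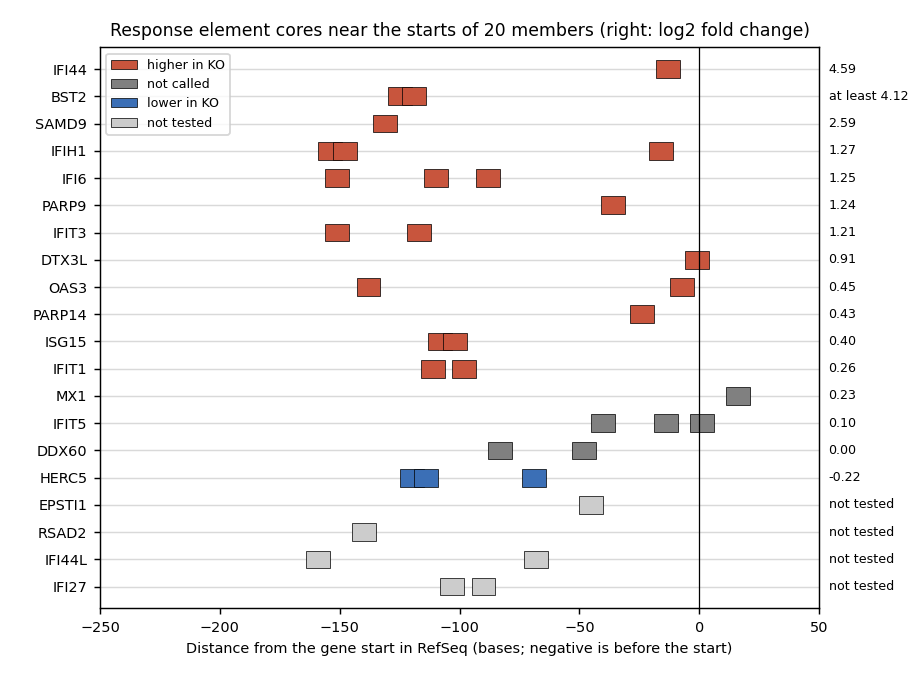
Position of each response element core relative to the gene start in RefSeq, in bases, for the 20 members that hold one, coloured by the call in KO, with the log2 fold change at the right (for BST2 the lower bound). Of the 36 cores, 1 begins after the start (MX1), the median lies 105 bases before it, and the farthest begins 164 bases before it.

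The RNA sensors were examined first among the roles, since they lie at the entry of the response. IFIH1 (MDA5, a cytoplasmic sensor of long viral RNA, ENSG00000115267, chromosome 2) had 2.42, 2.43 and 3.02 CPM in CT and 6.68, 6.37 and 6.28 CPM in KO libraries. Every KO library lay above every CT library, and the log2 fold change was 1.27 (SE 0.123, edgeR adjusted p = 6e-10). Tested genes of chromosome 2 had a median log2 fold change of -0.54, so that IFIH1 stood 1.81 above its chromosome; the part of this shift in the members' values was not tested. RIGI (RIG-I, the sensor of short viral RNA ends, ENSG00000107201, chromosome 9) had 13.3, 14.4 and 11.9 CPM in CT and 18.6, 17.3 and 18.2 CPM in KO libraries. Its genotypes did not overlap either, and the log2 fold change was 0.46 (SE 0.077, adjusted p = 8.1e-06). DDX60, a helicase reported to assist RIG-I, had 8.16 ± 0.725 CPM in CT and 8.13 ± 0.433 CPM in KO libraries. Its genotypes overlapped, and the 95% interval of its log2 fold change was -0.19 to 0.18.

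Of the 3 transcription factors among the members, 2 rose, against 32.8% of all tested genes, and IRF9 did not pass the test. STAT2 (ENSG00000170581, chromosome 12), a signalling subunit of the interferon-activated complex, had 37.9, 37.6 and 36.3 CPM in CT and 69.5, 71.9 and 70.7 CPM in KO libraries. The libraries of a genotype lay close together and far from the other genotype, with a log2 fold change of 0.93 (SE 0.050, adjusted p = 2.3e-15). Tested genes of chromosome 12 had a median of 0.37, which leaves 0.56 for STAT2 relative to its chromosome. IRF7 (chromosome 11), the factor that amplifies interferon production, had 3.48, 4.20 and 4.53 CPM in CT and 8.21, 9.21 and 8.24 CPM in KO libraries, a rise of 1.08 (SE 0.11, adjusted p = 1.8e-09) without overlap. IRF9, the DNA-binding part of the complex with STAT2, had 3.10, 3.37 and 3.06 CPM in CT and 2.71, 2.19 and 2.90 CPM in KO libraries. Every KO library of IRF9 lay below every CT library, but its log2 fold change of -0.33 (95% interval -0.62 to -0.04) had an adjusted p of 0.052 and passed under 4 of 16 other settings.

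Of the antiviral effectors, 8 of 10 tested genes were higher and none was lower, with a median log2 fold change of 1.64. Without BST2 and CMPK2, which passed the filter only through KO libraries, 6 of 8 were higher, with a median of 1.35. Of all tested genes, 32.8% were called higher. BST2 (tetherin, which holds budding virions at the cell surface, ENSG00000130303, chromosome 19) had 0 counts in all 3 CT libraries and 22, 27 and 21 counts in the KO libraries. Against a floor of 3 counts over the CT libraries it was at least 17.45-fold higher in KO (edgeR adjusted p = 8.2e-08). Its KO level was 0.815 ± 0.231 CPM, and tested genes of chromosome 19 had a median log2 fold change of 0.34. SAMD9 (ENSG00000205413) and SAMD9L (ENSG00000177409), paralogous restriction factors of poxviruses, are neighbours on chromosome 7. SAMD9 had 10.5, 8.61 and 8.76 CPM in CT and 58.7, 53.7 and 55.9 CPM in KO libraries, a log2 fold change of 2.59 (SE 0.071, adjusted p = 4.4e-22). SAMD9L had 1.78, 1.27 and 1.20 CPM in CT and 10.3, 9.78 and 9.89 CPM in KO libraries, a log2 fold change of 2.81 (SE 0.133, adjusted p = 1.3e-16). Both genes of this pair were separated between genotypes by several times their spread.

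TRIM22, a ubiquitin ligase that restricts retroviruses, and CMPK2, a mitochondrial nucleotide kinase, rose from low levels. TRIM22 (chromosome 11) had 0.807, 1.16 and 0.927 CPM in CT and 4.67, 4.36 and 5.39 CPM in KO libraries, a log2 fold change of 2.31 (SE 0.171, adjusted p = 2.5e-12). CMPK2 (chromosome 2) had 3, 9 and 9 counts in CT and 17, 56 and 25 counts in KO libraries. On the scaled values its genotypes did not overlap, at 0.311 ± 0.185 and 0.997 ± 0.221 CPM, and the log2 fold change was 1.78 (SE 0.339, adjusted p = 5e-05). Its neighbour RSAD2 (viperin, which makes a chain-terminating nucleotide) had only 0, 2 and 0 counts in CT and 2, 3 and 5 counts in KO libraries and was not tested. CMPK2 and RSAD2 overlap in the annotation. The ratio for RSAD2 was 3.74, with an exact counting interval of 0.797 to 35.1.

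The IFIT genes, whose products bind viral RNA and block its translation, lie close together on chromosome 10. Here 3 of the 4 were called higher, against 32.8% of all tested genes. IFIT2 (ENSG00000119922) had 2.08, 1.93 and 2.82 CPM in CT and 6.85, 6.41 and 6.73 CPM in KO libraries, a log2 fold change of 1.5 (SE 0.132, adjusted p = 8.5e-11). IFIT3 (ENSG00000119917) had 4.54, 3.97 and 3.95 CPM in CT and 9.39, 9.03 and 10.7 CPM in KO libraries, a log2 fold change of 1.21 (SE 0.107, adjusted p = 1e-10). For both genes all KO libraries lay above all CT libraries. IFIT1 (ENSG00000185745) had 6.07, 4.86 and 5.94 CPM in CT and 7.77, 6.72 and 6.06 CPM in KO libraries, so that the lowest KO library lay within the CT range. Its log2 fold change of 0.26 (SE 0.111) had an adjusted p of 0.041, which was lost under 7 of 16 other settings, among them leaving out CT replicate 2 (0.18, adjusted p = 0.187), KO replicate 1 (0.19, 0.157) or KO replicate 2 (0.28, 0.0706). IFIT5 (ENSG00000152778) had 34.0 ± 1.24 and 36.6 ± 2.70 CPM, overlapped between genotypes and did not pass the test (0.10, 95% interval -0.02 to 0.22, adjusted p = 0.15). From the largest to the smallest estimate the genes came in their order along the chromosome in the RefSeq table, IFIT2, IFIT3, IFIT1 and IFIT5, although the 95% intervals of IFIT2 and IFIT3 overlapped, as did those of IFIT1 and IFIT5. In that table IFIT1B (0 to 2 counts per library) lies between IFIT3 and IFIT1. Differences between IFIT genes were not tested, and reads that match several of them could have been assigned in a way the sources used here do not give. The lipase gene LIPA overlaps the IFIT cluster in the annotation, and its log2 fold change was 0.10 (adjusted p = 0.074).

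MX1 and MX2, dynamin-like proteins that block viral ribonucleoproteins and capsids, had few reads. MX1 had 0.595, 0.994 and 0.927 CPM in CT and 1.00, 1.06 and 0.802 CPM in KO libraries. These values overlapped, the log2 fold change was 0.23 with a 95% interval of -0.26 to 0.72, and a difference was not detectable at this depth. MX2 had 1, 0 and 2 counts in CT and 0, 0 and 1 counts in KO libraries and was not tested.

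**Figure D3:**
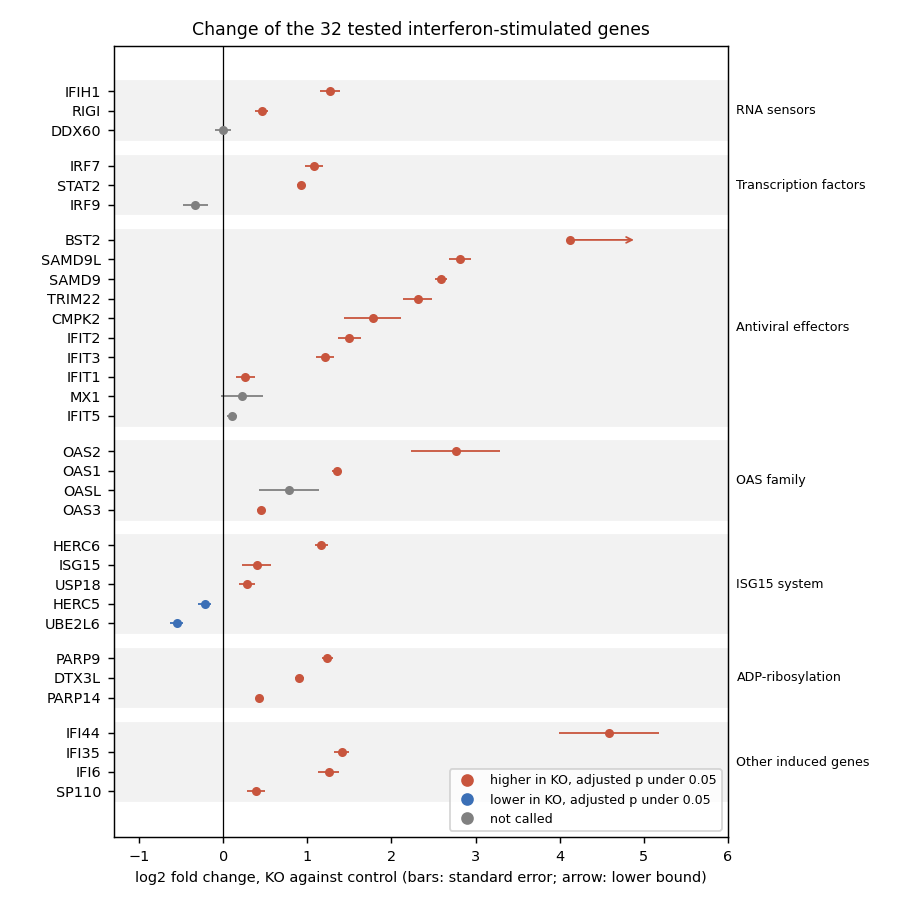
Log2 fold change in KO against CT for the 32 tested members, grouped by role, with bars of 1 standard error and colours for the call at an adjusted p under 0.05. The point of BST2 is its lower bound of 4.12, marked with an arrow, and UBE2L6 and HERC5 are the members to the left of 0 that passed the test.

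The oligoadenylate synthetases sense viral RNA and make the messenger that activates RNase L, and 3 of the 4 rose. Without OAS2 and OASL, which passed the filter only through KO libraries, 2 of 2 were higher, against 32.8% of all tested genes. OAS1, OAS3 and OAS2 lie in this order on chromosome 12. OAS1 (ENSG00000089127) had 20.01, 19.3 and 17.9 CPM in CT and 48.5, 49.0 and 47.5 CPM in KO libraries, a log2 fold change of 1.35 (SE 0.059, adjusted p = 2.1e-17), or 0.98 relative to the chromosome 12 median. OAS3 (ENSG00000111331) had 84.1, 87.6 and 88.2 CPM in CT and 116, 123 and 116 CPM in KO libraries, a log2 fold change of 0.45 (SE 0.045, adjusted p = 1.1e-09). OAS3 stood 0.081 above the chromosome 12 median. OAS2 had 2, 0 and 3 counts in CT and 10, 28 and 10 counts in KO libraries, a ratio of 7.18 with an exact counting interval of 2.87 to 23.1 (adjusted p = 4.7e-05). OASL, the family member without the enzymatic activity, had 8, 3 and 13 counts in CT and 15, 24 and 16 counts in KO libraries. Its scaled values did not overlap, at 0.317 ± 0.142 and 0.618 ± 0.117 CPM, but the adjusted p was 0.056, and it passed under 6 of 15 other settings.

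The ISG15 conjugation system was the role in which members moved in both directions, with 3 higher and 2 lower of 5 tested. Across all tested genes, 32.8% were higher and 30.0% lower. ISG15 itself (ENSG00000187608, chromosome 1), the ubiquitin-like tag, had 1.74, 1.49 and 1.85 CPM in CT and 2.58, 2.19 and 2.09 CPM in KO libraries. Its genotypes did not overlap, but the log2 fold change of 0.40 (SE 0.168) had an adjusted p of 0.042, which was lost under 8 of 16 other settings. These include leaving out CT replicate 1 (adjusted p = 0.0706), CT replicate 2 (0.13), KO replicate 1 (0.115) or KO replicate 2 (0.0618). UBE2L6 (ENSG00000156587, chromosome 11), the enzyme that carries ISG15 to its ligase, had 13.1, 13.6 and 13.5 CPM in CT and 9.39, 9.19 and 8.73 CPM in KO libraries. It fell by 0.55 on the log2 scale (SE 0.079, adjusted p = 7.6e-07), with no overlap and no loss of the call under any of the settings run.

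HERC5 and HERC6, adjacent on chromosome 4, moved in opposite directions. HERC5 (ENSG00000138646), the main ligase for ISG15 in human cells, had 13.7, 12.5 and 13.3 CPM in CT and 11.7, 11.0 and 11.5 CPM in KO libraries. It fell by 0.22 (SE 0.078, adjusted p = 0.016), a call lost under 5 of 16 other settings, including without CT replicate 1 (adjusted p = 0.0560) and without KO replicate 2 (0.0925). HERC6 (ENSG00000138642), its paralog, had 9.30, 9.61 and 8.35 CPM in CT and 20.8, 19.1 and 21.3 CPM in KO libraries, a log2 fold change of 1.17 (SE 0.080, adjusted p = 4.2e-13). All KO libraries lay below the CT libraries for HERC5 and above them for HERC6. USP18, the protease that removes ISG15 and dampens receptor signalling, had 7.73, 6.18 and 7.97 CPM in CT and 8.60, 9.21 and 9.05 CPM in KO libraries. The fitted rise was 0.28 on the log2 scale (SE 0.097, adjusted p = 0.013), and this fell to 0.19 (adjusted p = 0.101) without CT replicate 2 and to 0.26 (adjusted p = 0.0637) without KO replicate 2. USP41, a near copy of USP18, had 0 to 2 counts per library.

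All 3 members linked to ADP-ribosylation on chromosome 3 rose, against 32.8% of all tested genes called higher. PARP9 (ENSG00000138496) and DTX3L (ENSG00000163840) form a heterodimer that modifies ubiquitin and histones. PARP9 had 12.4, 12.9 and 13.8 CPM in CT and 31.7, 30.6 and 30.3 CPM in KO libraries, a log2 fold change of 1.24 (SE 0.066, adjusted p = 2.1e-15). DTX3L had 32.1, 32.9 and 33.3 CPM in CT and 63.1, 60.8 and 60.5 CPM in KO libraries, a log2 fold change of 0.91 (SE 0.051, adjusted p = 7.2e-15). This is the pair whose starts share the core printed above. PARP14, a mono-ADP-ribosyltransferase, had 92.0, 88.2 and 87.5 CPM in CT and 126, 117 and 119 CPM in KO libraries, a log2 fold change of 0.43 (SE 0.046, adjusted p = 3.4e-09). PARP15, which lies between DTX3L and PARP14, had 0 counts in every library. PARP9 and DTX3L overlap in the annotation, and the strand setting of the counting is not given in the sources used here.

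The remaining members included 4 tested genes, and all 4 were higher in KO. Without IFI44, which passed the filter only through KO libraries, 3 of 3 were higher, against 32.8% of all tested genes. IFI44 (ENSG00000137965, chromosome 1), a cytoplasmic protein of little known function, had 0, 2 and 0 counts in CT and 18, 36 and 20 counts in KO libraries, a ratio of 27.7 with an exact counting interval of 7.39 to 233 (adjusted p = 1.4e-07). CT replicate 2 held all of its CT counts, so the fitted log2 fold change of 4.59 became 7.54 without that library and 3.91 without CT replicate 3. Its neighbour IFI44L had 0 counts in every CT library and 4, 10 and 5 counts in KO libraries, at least 4.74-fold higher against the floor of 3 counts over the group, and was not tested. IFI35 (chromosome 17), a partner of NMI, had 7.26, 5.85 and 7.14 CPM in CT and 17.0, 18.9 and 18.1 CPM in KO libraries, a log2 fold change of 1.41 (SE 0.087, adjusted p = 5.2e-14). IFI6 (chromosome 1), a small membrane protein that limits flavivirus replication, had 2.46, 2.98 and 2.71 CPM in CT and 6.07, 6.23 and 7.17 CPM in KO libraries, a log2 fold change of 1.25 (SE 0.124, adjusted p = 9.7e-10). In both genes all KO libraries lay above all CT libraries.

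SP110, a nuclear body protein on chromosome 2, had 4.71, 4.36 and 4.47 CPM in CT and 5.94, 6.25 and 5.39 CPM in KO libraries. Its log2 fold change of 0.39 (SE 0.11, adjusted p = 0.0029) stood 0.93 above the chromosome 2 median, and SP140, which overlaps it in the annotation, had 0 to 5 counts per library. IFI27, EPSTI1 and XAF1 were not tested. IFI27, often among the strongest interferon-induced genes of epithelia, had 12, 6 and 13 counts in CT and 5, 17 and 9 counts in KO libraries, with means of 0.429 and 0.321 CPM. EPSTI1 had 1, 0 and 2 counts in CT and 0, 6 and 2 counts in KO libraries, a ratio of 1.99 with an exact counting interval of 0.479 to 11.7. XAF1, a pro-apoptotic protein, had 0 counts in every library, which allows up to 0.0424 CPM over the CT and 0.0317 CPM over the KO libraries, counting error only.

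Members were also grouped by their read count. CPM is not scaled to transcript length, so the ranges order genes by counts and not by transcripts. Of the 6 tested members with a mean under 1 CPM over the 6 libraries, 5 were those that passed the filter only through KO libraries and the other was MX1, which did not pass the test, so that nothing is read from this range. Among 13 members of 1 to 10 CPM, 11 were higher with a median of 1.08, against 35% and 0.065 for 5104 genes. Among 13 members of 10 CPM or more, 10 were higher and 2 lower with a median of 0.91, against 36% and -0.0039 for 9443 genes. At 10 CPM or more, 5 of the 13 members rose by at least 2-fold, against 4.79% of all genes there. Summed over all 38 members, CT libraries held 426 to 431 CPM and KO libraries 706 to 723 CPM.

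**Figure D4:**
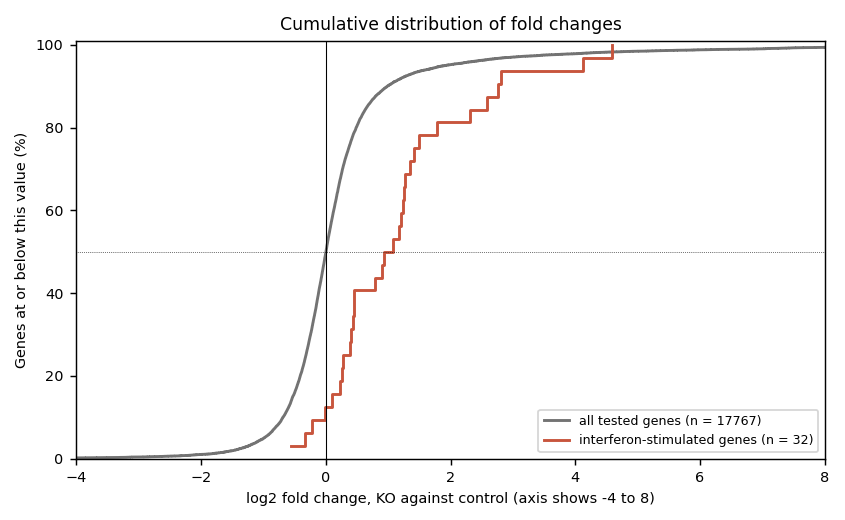
Percentage of genes at or below each log2 fold change in KO against CT, for all 17767 tested genes (grey) and the 32 tested members (red). Among the members, BST2 is drawn at its lower bound. The members' line lies to the right of that of all genes over most of the axis, with medians of 1.00 and 0.0038.

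The ligands that start this pathway had few or no reads. Of 22 interferon genes, 14 had 0 counts in every library, including IFNG, and 5 more had 1 or 2 counts in all (IFNB1, IFNA5, IFNA8, IFNW1 and IFNL4). IFNE, an interferon of epithelia that needs no infection for its expression, was the only one tested. It had 1.79 ± 0.122 CPM in CT and 3.05 ± 0.289 CPM in KO libraries and rose by 0.79 on the log2 scale (SE 0.155, adjusted p = 6.7e-05). IFNA1 had 4, 3 and 3 counts in CT and 18, 33 and 7 counts in KO libraries, and IFNK had 5, 8 and 4 against 1, 3 and 1. On the scaled values neither gene overlapped between genotypes, with IFNA1 higher and IFNK lower in KO. The IFNA genes are near copies of each other, so that the source of the IFNA1 reads is uncertain.

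Receptors and signalling genes outside the list had medians nearer to 0 than the members. Of 9 receptor and kinase genes, all tested, 3 were higher and 1 was lower, with a median log2 fold change of 0.20, and 3 of 9 is close to the 32.8% of all tested genes called higher. The receptor chain IFNAR1 rose by 0.25 (adjusted p = 0.001), IFNGR2 by 0.20 (0.011) and the kinase TYK2 by 0.15 (0.016, below the chromosome 19 median of 0.34), while JAK1 fell by 0.29 (2.6e-07). Among the interferon regulatory factors outside the members, the largest increases were those of IRF2 (0.60), IRF1 (0.37) and IRF3 (0.24, on chromosome 19 with its median of 0.34). Of 6 tested negative regulators, 4 were higher and 2 lower, against 32.8% and 30.0% of all tested genes. SOCS3, a feedback inhibitor of cytokine receptors, had the largest change of these and fell from 24.7 ± 1.51 to 9.36 ± 0.56 CPM (-1.40, adjusted p = 1.7e-15). PTPN2, a phosphatase of the JAK kinases, fell by 0.41, while the phosphatases PTPN6 and PTPN11 on chromosome 12 rose by 0.76 and 0.31. PIAS4 on chromosome 19 rose by 0.18. Relative to the medians of their chromosomes, PTPN6 stood at 0.39, PTPN11 at -0.062 and PIAS4 at -0.16.

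A second set of 36 interferon-induced genes that are not members was counted for comparison. Over all tested genes, 32.8% were higher, 30.0% lower and 9.86% higher by at least 2-fold. Of 34 tested in this set, 26 were higher and 5 lower in KO, 9 of them higher by at least 2-fold, with a median log2 fold change of 0.51. Without the 3 that passed the filter only through KO libraries (IFI16, DHX58 and LGALS9), 23 of 31 were higher, 7 by at least 2-fold, and the median was 0.50. LGALS3BP, a secreted glycoprotein, rose from 46.0 ± 4.36 to 399 ± 17.8 CPM (3.12, SE 0.057), the guanylate-binding protein GBP3 from 1.23 ± 0.264 to 17.9 ± 0.691 CPM (3.85, SE 0.122) and the DNA sensor IFI16 from 0.189 ± 0.0765 to 4.50 ± 0.843 CPM (4.42, SE 0.277). PNPT1 on chromosome 2 fell by 0.83 and stood at -0.29 relative to the chromosome 2 median of -0.54. SLFN5 fell by 0.27 and DDX60L, a paralog of DDX60, by 0.25. Among 11 genes known mainly as interferon gamma targets, 6 were tested, 4 were higher and 1 (WARS1, -0.29) was lower, but all 4 higher genes (CXCL11, GBP1, GBP2 and ICAM1) passed the filter only through KO libraries, so their count carries no weight. GBP2 rose from 0.382 ± 0.173 to 14.8 ± 0.785 CPM (5.30, SE 0.170). The chemokine CXCL11 had 1, 0 and 0 counts in CT and 65, 145 and 55 counts in KO libraries, a ratio of 198 with an exact counting interval of 35.3 to 7857. GBP1 had 1 count in each CT library and 61, 141 and 67 counts in KO libraries, a ratio of 67.1 with an exact counting interval of 22.7 to 327. Of 15 NF-kB targets, which many viral sensors also induce, 10 were tested. Of these, 2 were higher (CXCL1, 1.2, and CCL2, 1.05) and 6 lower, against 32.8% and 30.0% of all tested genes. The largest falls were those of CXCL8 (-1.77), CXCL3 (-1.27) and NFKB2 (-0.64). The median of the tested NF-kB targets was -0.41, below that of all tested genes, while the median of the members lay above it.

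**Figure D5:**
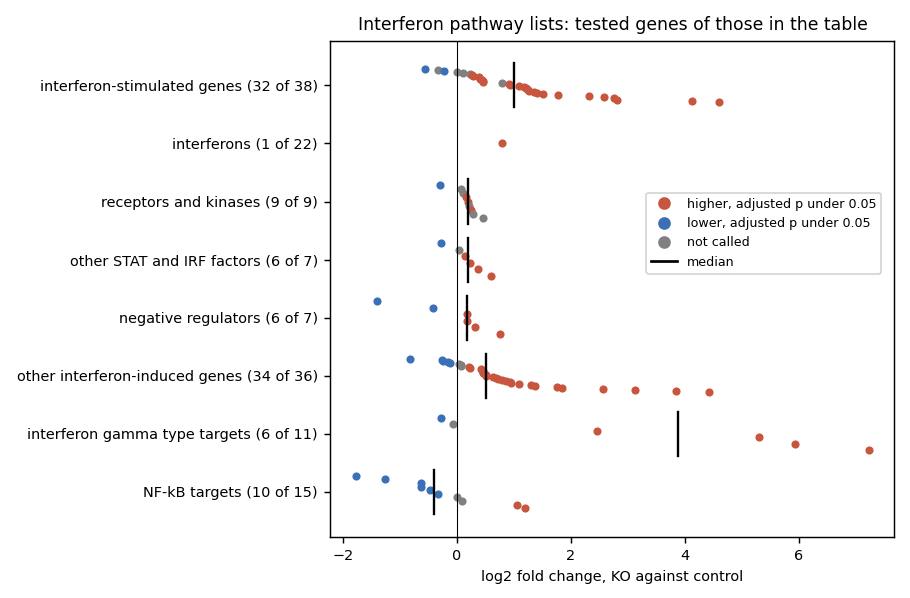
Log2 fold change in KO against CT of each tested gene of the members and of 7 other interferon pathway lists, coloured by the call, with black bars at the list medians. Among the members, BST2 is drawn at its lower bound. The members have a median of 1.00, receptors and kinases 0.20, other interferon-induced genes 0.51 and NF-kB targets -0.41.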

How the data were processed

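RNA-seq of 3 CT and 3 KO libraries was used; genotypes came from the labels. The authors deposited whole-number counts per gene, from a stranded total RNA kit per the labels. The submitters' processing notes name hg19, STAR 2.6.1c and edgeR 3.30.0 without their roles; the counter, its strand setting and the handling of reads shared by paralogs are not given in the sources used here. Of 62486 gene IDs, 58642 (93.8%) matched the name table. The fit used edgeR 4.0.16 (R 4.3.3): low counts were removed by filterByExpr (minimum count 10), libraries were scaled by TMM, genotype alone entered a robust quasi-likelihood F-test, and p-values were adjusted by Benjamini-Hochberg over 17767 genes with a threshold of 0.05. The code was tested on simulated counts. Intervals are 95%, and count ratios use exact binomial limits that cover counting error only.

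Members, lists and tests were chosen with earlier results of these data known. Every member is named; of each other list, at most the 3 largest called changes each way with a mean of at least 1 CPM and no overlap, and interferons with a count. In the list of induced genes, C19orf66 was matched as SHFL; PECAM1 had no matching row. A result on a gene of the other lists is not reported here. Chromosome, order, overlaps and promoters came from RefSeq tables on GRCh38.p14; 7 members (IFIT2, MX2, OAS2, OASL, IRF7, USP18 and TRIM22) had no promoter entry. Chromatin and Hi-C files were not used here, since the genes were not placed on hg19. Replicate libraries differed beyond sampling noise, so none was merged.

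Alternatives tried were RLE, upper quartile and unscaled library sizes, no filter, a filter at 1 CPM in 3 libraries, mitochondrial genes left out, DESeq2 1.42.0, limma 3.58.1 voom, a replicate block, leaving out each library, centring on the chromosome median, other promoter windows, and, chosen after seeing the data, libraries thinned to equal depth and the first promoter entry only. Scripts used Python 3.11.15.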

Additional observations from a re-analysis of the deposited data

How the results depend on the processing

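The numbers of members higher and of members higher by at least 2-fold stayed within 1.5 times of their main values under every setting run. The number of lower members was 1 without the expression filter, with DESeq2 and with libraries thinned to equal depth, and 1 to 2 when a library was left out (1 without CT replicate 1 or KO replicate 2). The members' median log2 fold change was 0.90 with the 1 CPM filter (26 members), 0.92 with thinned libraries (28 members) and 0.93 to 1.12 when a library was left out. Without the expression filter, 2 interferons were higher and 1 lower, 2 other STAT and IRF factors were lower and 3 other induced genes were lower. When a library was left out, 1 to 2 interferons were higher, and 3 to 5 other induced genes lower (3 without KO replicate 2). The estimate for DDX60 changed sign to 0.026 with library size only, 0.036 without the filter, 0.0019 without mitochondrial genes, and, when a library was left out, ranged from -0.060 (without CT replicate 1) to 0.08 (0.080 without CT replicate 3, 0.037 without KO replicate 1); it passed the test under none of these. The causes were not tested. Of called genes, 52.2% were higher in the main analysis, 48.4% under upper quartile scaling and 55.7% with library size only.

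Whether equal replicate numbers in the labels mean paired libraries could not be settled from 3 libraries per genotype. Same-numbered libraries correlated at 0.169, 0.103 and 0.0616. CT replicate 1 and CT replicate 2 each correlated best with the KO library of the same number, and CT replicate 3 with KO replicate 2 (0.0829). With a replicate block, 26 members were higher and 2 lower with a median of 1.00, and OASL passed (0.94, adjusted p = 0.0223); 11655 genes were called in all.

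Depth limits MX1, for which a change was not detectable. The members MX2, IFI27, RSAD2, EPSTI1 and XAF1 did not pass the filter on low counts and were not tested in the main fit. IFI44L, also untested, has only a lower bound.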
